A study of Mus musculus with 12 samples.

Results

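The genes described here are 41 mouse genes of antioxidant defence: the transcription factor NRF2 (Nfe2l2) and its inhibitor Keap1, enzymes that make, recycle or use glutathione, thioredoxins and peroxiredoxins, superoxide dismutases and catalase, enzymes that supply NADPH, and genes of iron and haem handling. Their RNA was read in 12 bulk RNA-Seq libraries of spleen T cells, 3 in each of 4 groups. PERK, encoded by Eif2ak3, is a sensor of stress in the endoplasmic reticulum (ER). The donors of the T cells were WT or PERK-cKO mice (named PERK-KO in the sample labels), the latter bred from PERK fl/fl and CD4-Cre mice on the C57BL/6 background, so that the deletion is driven in cells of the T lineage. Both genotypes met either antigen-presenting cells (APCs) of an allogeneic strain, over 4 days, or antibodies against CD3 and CD28 (polyclonal stimulation), over 3 days. These times are those of the deposited description, whereas the study's text names the same time for both stimulations. The labels do not give the age, the sex or whether replicates came from separate animals, so p-values measure the spread between these libraries, which may be technical.

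NRF2 is held in the cytoplasm and marked for degradation by KEAP1. Oxidants and electrophiles release it, and it then binds antioxidant response elements in the promoters of its targets, among them the genes of glutathione synthesis, thioredoxin reductase, NADPH-producing enzymes, haem oxygenase and ferritin. PERK can phosphorylate NRF2, which is one of the known links between ER stress and antioxidant defence. Activated T cells produce reactive oxygen species as part of receptor signalling and need glutathione to grow, so this group of genes is commonly followed in stimulated T cells.

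The counts of a gene could not be taken from the row of the deposited table that carries its symbol. The authors counted reads on the exon positions of an annotation of one genome build, whereas the labels name another build for the alignment, so a row (an entry) mostly holds reads from whatever lies at the same numbers in the other build. Each entry's printed positions were therefore laid on GRCm38 gene models, and entries over exons of exactly 1 gene were summed for that gene as "placed counts", also given as placed CPM (counts per 1000000 placed counts, after scaling between libraries). A gene was kept with 10 or more placed counts over the 12 libraries, which left 11 of the 41 genes, out of 5910 genes in the table as a whole. The 11 were Gclc and Gsr of the glutathione pathway, Txn1, Txnrd2 and Prdx1 of the thioredoxin system, Sod2, the transferases Gsto1, Gstp1 and Mgst2, the NADPH source Me1, and Selenbp1. Of the other 30 genes, none had an entry that could be placed. For 13 of them an entry lay over their exons and over exons of other genes as well, and for 17, among them Hmox1 and Txnrd1, no entry lay over their exons, so their level is not analysed here.

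The placed counts covered small stretches of most genes. Txn1 was the only gene read from the entry under its own symbol, over all 1051 bases of its exons, and the other 10 were read from entries with another symbol. The stretch covered 66 bases of exon in Mgst2, 100 in Gsr, 214 in Gsto1, 424 in Selenbp1, 425 in Gclc, 489 in Prdx1, 537 in Txnrd2, 813 in Gstp1, 1434 in Me1 and 2199 in Sod2. In 8 of the 11 genes less than 50% of the entries' length lay inside the exons, and reads from their introns or from outside the gene are counted with them. Levels are therefore compared between groups for the same gene and never between genes.

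The list of genes was drawn around NRF2, so matches to the sequence that NRF2 binds are not independent of the choice of genes. That sequence is the antioxidant response element. Its core, TGACNNNGC on either strand, was searched in the promoter windows of RefSeq (GRCm38.p6; 250 bases before to 50 bases after the annotated start). A window was given for 36 of the 41 genes, in 47 windows, and the core stood in 11 windows of 11 genes. It stood in 12.4% of all 32851 windows. Of the 9 kept genes with a window, Me1 and Prdx1 held it, whereas the windows of Txn1, Txnrd2, Sod2, Gsto1, Gstp1, Mgst2 and Selenbp1 did not hold these letters. The cores of the kept genes and of 3 others whose products start or feed the pathway are shown with 10 bases on each side, with the core in capitals, to let the shared letters be seen. The Me1 core spans the annotated start at chr9:86695902-86695930 and is read here from the minus strand, the Prdx1 core ends 124 bases before the start at chr4:116685456-116685484 (minus strand), that of Gclm, the regulatory subunit of glutathione synthesis, lies at chr3:122245413-122245441 (minus strand), that of Txnrd1, thioredoxin reductase, at chr10:82859104-82859132 (minus strand), and that of Nfe2l2 itself at chr2:75704885-75704913 (minus strand).
Me1: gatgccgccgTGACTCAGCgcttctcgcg
Prdx1: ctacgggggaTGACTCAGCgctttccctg
Gclm: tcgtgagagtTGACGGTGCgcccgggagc
Txnrd1: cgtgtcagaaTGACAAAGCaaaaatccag
Nfe2l2: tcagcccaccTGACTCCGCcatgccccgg
Me1 and Prdx1 share all 9 letters of the core. A match is a description of letters in a window and not evidence of binding in these cells.

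Total counts per library were 3132702 to 4631908, and placed counts were 1568631 to 2327859. Where a gene held 0 counts, the library still allows a true level of up to 3 counts, 1.29 to 1.91 placed CPM, for counting error only. Eif2ak3, the deleted gene, was read from 563 bases in 2 entries and held 169, 167 and 173 counts in WT and 155, 140 and 121 in PERK-cKO cells after allogeneic stimulation, a difference of -0.49 on the log2 scale (SE 0.137, adjusted p = 0.00756, quasi-likelihood test of edgeR, Benjamini-Hochberg over all genes). After polyclonal stimulation it held 152, 118 and 85 against 116, 76 and 92 (-0.36, SE 0.19, adjusted p = 0.171). The placed stretches were not matched to the floxed exons, so these counts do not check the deletion. T cell markers were read in every library, with 8 of 16 placed. Their summed level was 6980 to 7060 placed CPM in WT and 6040 to 6630 in PERK-cKO cells after allogeneic stimulation, where 4 of the 6 tested were called lower in PERK-cKO, and 4800 to 4940 against 6020 to 6350 after polyclonal stimulation, where 3 of 8 were called higher and 1 lower. The libraries differed in other ways that follow the groups. Macrophage markers (6 of 18 placed) summed to 102 to 121 placed CPM in WT and 2150 to 2680 in PERK-cKO cells after allogeneic stimulation, against 7.49 to 11.6 after polyclonal stimulation. Of these, Lyz2 held 97, 77 and 108 counts in WT and 1983, 2106 and 1643 in PERK-cKO cells after allogeneic stimulation, and 0 to 2 after polyclonal stimulation. Cd163 was at 0 in all 6 libraries of allogeneic stimulation. Basophil and mast cell markers (5 of 10 placed) summed to 47.7 to 57.6 in WT and 903 to 923 in PERK-cKO cells after allogeneic stimulation, and to 3.49 to 6.76 and 26.4 to 28.8 after polyclonal stimulation. B cell markers (2 of 12 placed) and dendritic markers (3 of 8) were also higher in PERK-cKO than in WT T cells after allogeneic stimulation, at 193 to 223 against 90.0 to 118 and at 45.6 to 61.6 against 1.77 to 7.93. Erythroid markers (4 of 10) stayed at 4.03 or below, and no neutrophil marker of 8 was placed. The 4 Y-linked genes placed held 3335 to 4716 counts in the WT libraries of allogeneic stimulation and 0 in the other 9, so the sex of the cells cannot be told apart from the genotype after allogeneic stimulation, nor from the stimulation in WT T cells, and it enters the interaction. Gm42418, which overlaps ribosomal RNA sequence, took 12.1% of the placed counts in WT polyclonal replicate 1, against 1.32% and 1.0% in the other 2 of that group. It took 3.28% in PERK-cKO allogeneic replicate 3, against 0.479% and 0.477%, 1.79% to 5.65% in the PERK-cKO polyclonal libraries (highest in replicate 2), and 0.45% to 0.644% in the WT allogeneic ones.

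**Figure D1:**
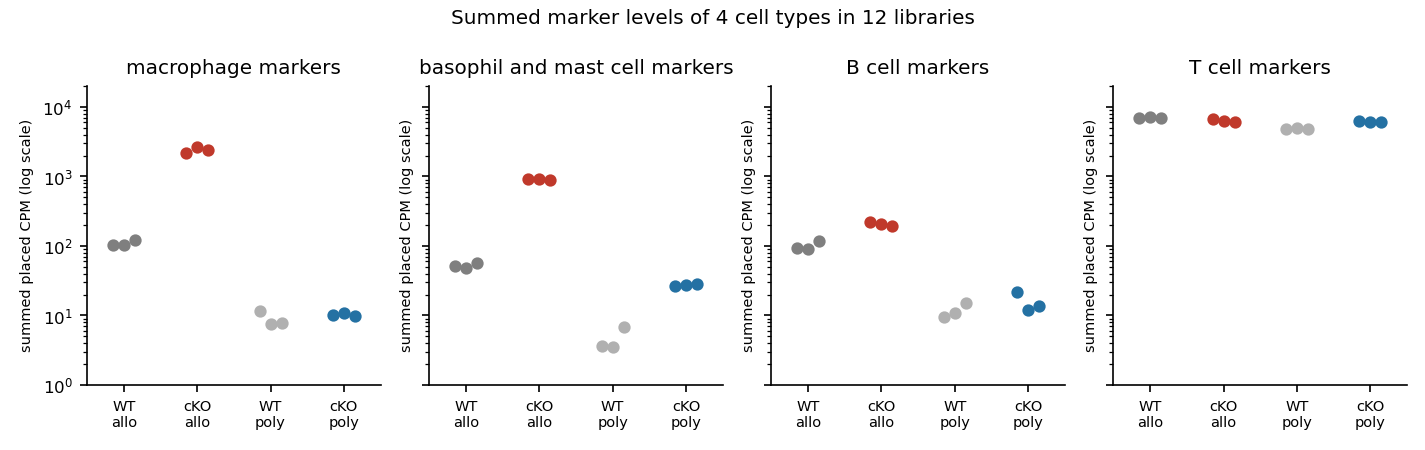
Summed placed CPM (log axis) of the macrophage, basophil and mast cell, B cell and T cell markers that could be placed, with 1 point per library and 3 libraries per group. The macrophage sum lies at 2150 to 2680 in PERK-cKO and at 102 to 121 in WT T cells after allogeneic stimulation.

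After allogeneic stimulation, 2 of the 8 kept genes that passed the filter on low counts rose in PERK-cKO against WT T cells and none fell. They were Me1, cytosolic malic enzyme, which makes NADPH from malate, and Sod2, the superoxide dismutase of mitochondria. Across all 4096 genes tested, 33.2% were called, 18.5% as higher and 14.7% as lower, so 2 of 8 lies near the background. The median log2 fold change of the 8 was 0.11, against -0.02 over all genes tested. Gsr, Txnrd2 and Gsto1 did not pass the filter, with 0 to 17 counts per library. By the same test 2 genes, Gstp1 and Mgst2, were lower at an unadjusted p under 0.05, and DESeq2 also called 0 lower.

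Me1 (chr9:86581371-86695953, minus strand, GRCm38) was the member with the largest difference in this comparison. It held 12, 18 and 12 placed counts in WT and 79, 74 and 56 in PERK-cKO cells after allogeneic stimulation, and all 3 PERK-cKO libraries lay above all 3 WT libraries. The level was 8.16 ± 2.19 placed CPM (SD, n = 3) in WT and 35.1 ± 1.85 (n = 3) in PERK-cKO T cells, a log2 fold change of 2.11 (SE 0.274, 4.3-fold, adjusted p = 1.53e-06). After polyclonal stimulation Me1 held 18, 24 and 29 counts in WT and 22, 25 and 11 in PERK-cKO T cells, and the groups overlapped (log2 fold change -0.31, SE 0.359, adjusted p = 0.56). The difference between these genotype effects was itself called, at 2.40 on the log2 scale (SE 0.45, adjusted p = 0.000235 for the interaction). The entry that carries the symbol Me1, which was not placed on its exons, was at 0.34 (adjusted p = 0.328) after allogeneic stimulation and 0.69 (adjusted p = 0.0882) for the interaction. The PERK-cKO libraries with high Me1 are also those with high macrophage, basophil and mast cell and dendritic markers, and the part of these cells in the Me1 counts was not tested. In bulk RNA, a change in the number of cells of a type and a change of RNA per cell cannot be told apart.

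Sod2 (chr17:13006846-13040063, plus strand) held 81, 98 and 82 counts in WT and 212, 138 and 146 in PERK-cKO cells after allogeneic stimulation, without overlap. Its level was 50.6 ± 7.17 placed CPM (SD, n = 3) and 83.2 ± 11.9 (n = 3), a log2 fold change of 0.72 (SE 0.162, adjusted p = 0.00117). These are the same libraries that differ in macrophage and basophil and mast cell markers and in Y-linked counts, and the part of these in the Sod2 counts was not tested. The counts came from 4 entries, and another entry over 540 bases of Sod2 and 114 bases of Acat2, which the placement leaves out, held 70, 74 and 79 counts in WT and 121, 63 and 63 in PERK-cKO T cells and overlapped between genotypes (log2 fold change -0.05, SE 0.196, adjusted p = 0.887). After polyclonal stimulation Sod2 held 129, 149 and 137 counts in WT and 205, 127 and 192 in PERK-cKO T cells. The level of 71.2 ± 3.24 against 88.2 ± 11.6 placed CPM did not pass the test (log2 fold change 0.30, SE 0.129, adjusted p = 0.0928), and the interaction was not called (0.41, SE 0.205, adjusted p = 0.137). The polyclonal difference passed the test without PERK-cKO polyclonal replicate 2 (0.39, adjusted p = 0.0432), and the interaction passed it without PERK-cKO allogeneic replicate 2 (0.57, adjusted p = 0.0387) or with libraries scaled to T cell markers (0.90, adjusted p = 0.00164). That scaling moved the median interaction over all genes from 0.01 to 0.50.

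The glutathione and thioredoxin genes did not pass the test after allogeneic stimulation. Gclc (chr9:77754535-77794485, plus strand), the catalytic subunit of the enzyme that limits glutathione synthesis, held 80, 100 and 114 counts in WT and 109, 98 and 94 in PERK-cKO T cells, with a log2 fold change of -0.15 (SE 0.164, adjusted p = 0.531). Txn1, cytosolic thioredoxin and the gene read over its whole length, held 567, 889 and 740 against 662, 1000 and 595, with overlapping groups (-0.14, SE 0.152, adjusted p = 0.521). Prdx1, a peroxiredoxin that removes hydrogen peroxide with electrons from thioredoxin, had the values 16, 17 and 14 against 26, 23 and 32, which did not overlap as CPM and did not pass (0.60, SE 0.355, adjusted p = 0.211). The transferases Gstp1 (-0.65, SE 0.313, adjusted p = 0.12) and Mgst2 (-0.38, SE 0.169, adjusted p = 0.0884) and the selenium-binding protein gene Selenbp1 (0.36, SE 0.27, adjusted p = 0.345) overlapped between genotypes. Txn1 passed the test in 1 of the 6 fits that left out a library, without PERK-cKO replicate 2, at -0.37, and Mgst2 in 1, without WT replicate 2, at -0.51.

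**Figure D2:**
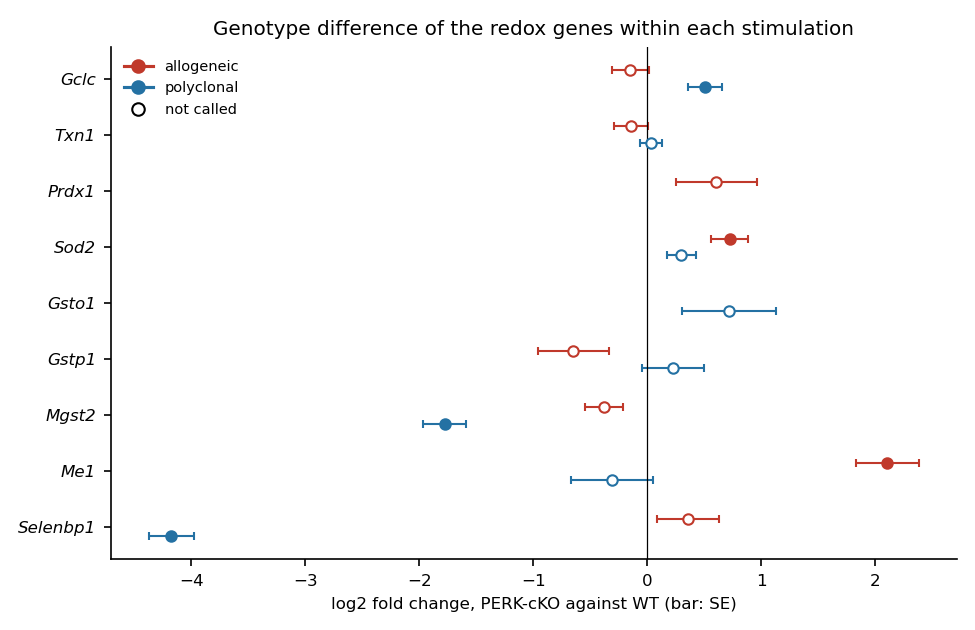
Log2 fold change of PERK-cKO against WT (x axis, bar: SE) for each kept gene that passed the filter, in red after allogeneic and in blue after polyclonal stimulation, with 3 libraries per genotype and open points for genes that were not called. Me1 at 2.11 lies farthest to the right and Selenbp1 at -4.18 farthest to the left.

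After polyclonal stimulation, 3 of 8 kept genes were called, with Selenbp1 and Mgst2 lower and Gclc higher in PERK-cKO than in WT T cells. Across 3941 genes tested, 31.8% were called, 16% as higher and 15.8% as lower. The median log2 fold change was 0.13 over the 8 genes and 0.0014 over all genes. Gsr, Txnrd2 and Prdx1 did not pass the filter.

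Selenbp1 (chr3:94933056-94944758, plus strand), which encodes a selenium-binding protein that oxidises methanethiol, had the largest difference of all kept genes. It held 413, 416 and 390 placed counts in WT and 14, 29 and 25 in PERK-cKO T cells, and the groups were far apart. The level was 209.0 ± 7.39 placed CPM (SD, n = 3) in WT and 12.1 ± 5.61 (n = 3) in PERK-cKO T cells, a log2 fold change of -4.18 (SE 0.196, 18.1-fold, adjusted p = 8.2e-10). After allogeneic stimulation it was low in both genotypes, with 37, 25 and 41 counts in WT and 76, 36 and 41 in PERK-cKO T cells, and WT T cells after polyclonal stimulation were the group that stood apart. The interaction was 4.52 (SE 0.346, adjusted p = 1.55e-09). The counts come from a single entry, listed as Psmd4, of 2808 bases, of which 424 are Selenbp1 exon and 2277 are Selenbp1 intron.

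The exon stretches under this entry are shown because they are nearly the same in the neighbouring paralog Selenbp2. They are 4 stretches of coding sequence, and 4 of their 424 bases differ from the matching exons of Selenbp2 (99.1% identical), with an identical run of up to 113 bases. The exons that hold the 4 differing bases, exon 7 (chr3:94940048-94940226) and exon 9 (chr3:94942625-94942746) of GENCODE M21 on GRCm38, plus strand, are printed with the differing bases in capitals.
Selenbp1 exon 7: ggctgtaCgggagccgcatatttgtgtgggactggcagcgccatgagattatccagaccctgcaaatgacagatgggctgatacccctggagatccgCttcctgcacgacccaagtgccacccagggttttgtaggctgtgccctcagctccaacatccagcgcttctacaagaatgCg
Selenbp1 exon 9: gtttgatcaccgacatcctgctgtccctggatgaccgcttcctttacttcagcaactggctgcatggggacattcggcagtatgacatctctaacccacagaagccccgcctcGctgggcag
Reads of these exons could come from either gene, and the values are those of the locus under the entry rather than of Selenbp1 alone. No entry was placed on Selenbp2.

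Mgst2 (chr3:51660360-51682677, plus strand), a microsomal transferase that makes leukotriene C4 and conjugates glutathione, held 144, 149 and 140 counts in WT and 37, 36 and 55 in PERK-cKO cells after polyclonal stimulation, without overlap. The level was 74.3 ± 1.48 placed CPM (SD, n = 3) in WT and 22.0 ± 6.0 (n = 3) in PERK-cKO T cells, a log2 fold change of -1.78 (SE 0.187, 3.43-fold, adjusted p = 4.7e-06). After allogeneic stimulation the values were 125, 113 and 184 in WT and 117, 131 and 117 in PERK-cKO T cells, so that the 3 PERK-cKO libraries of polyclonal stimulation were the low ones among all 12. The interaction was 1.38 (SE 0.262, adjusted p = 0.000263). The entry behind these counts, listed as Gm37342, spans 4965 bases, of which 66 are Mgst2 exon and 4899 are Mgst2 intron. Most of its length is therefore intronic, and how its counts divide between exon and intron was not tested. The 66 coding bases, chr3:51664545-51664610 (GENCODE M21, GRCm38, plus strand), are shown in capitals within their exon to let their size be judged.
Mgst2 exon: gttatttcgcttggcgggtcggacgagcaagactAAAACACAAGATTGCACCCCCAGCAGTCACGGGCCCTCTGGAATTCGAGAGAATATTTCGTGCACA

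Gclc held 83, 107 and 102 counts in WT and 186, 108 and 132 in PERK-cKO cells after polyclonal stimulation. As CPM the groups did not overlap, at 50 ± 5.52 placed CPM (SD, n = 3) in WT and 71.4 ± 9.26 (n = 3) in PERK-cKO T cells, a log2 fold change of 0.50 (SE 0.149, adjusted p = 0.0172). The interaction was also called, at -0.67 (SE 0.213, adjusted p = 0.0174). This call rested on few libraries: the polyclonal difference was 0.39 (adjusted p = 0.103) without WT replicate 1, the library in which Gm42418 took 12.1% of the counts, 0.37 (adjusted p = 0.101) without PERK-cKO replicate 1, and 0.18 (adjusted p = 0.353) when libraries were scaled to T cell markers. The interaction was lost without PERK-cKO allogeneic replicate 1 (-0.57, adjusted p = 0.0597), WT polyclonal replicate 1 (-0.59, adjusted p = 0.0532) or PERK-cKO polyclonal replicate 1 (-0.56, adjusted p = 0.0553), with scaling to T cell markers (-0.18, adjusted p = 0.547) and among genes with at least 10 counts in every library (-0.55, adjusted p = 0.0515). Scaling to T cell markers moved the median over all genes to -0.32 in the polyclonal comparison and to 0.50 in the interaction. The entry, listed as Gm47818, spans 2740 bases. It overlies 425 exon bases at the 5′ end of Gclc, 434 bases of Gclc introns and 1881 bases outside the gene.

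Txn1 did not differ beyond the spread after polyclonal stimulation, with 963, 880 and 1066 counts in WT and 1264, 777 and 1031 in PERK-cKO T cells (log2 fold change 0.03, SE 0.0985, adjusted p = 0.828). With libraries scaled to T cell markers the value was -0.29 (adjusted p = 0.0303), a scaling that shifted the median of all genes to -0.32. Gsto1, an omega-class transferase, held 12, 19 and 5 against 18, 19 and 23 counts (0.72, SE 0.413, adjusted p = 0.21), and Gstp1 held 29, 32 and 19 against 41, 26 and 29 (0.23, SE 0.274, adjusted p = 0.575). The low counts of Prdx1 in this stimulation, 9, 5 and 6 in WT and 10, 19 and 14 in PERK-cKO T cells, did not pass the filter, nor did those of Gsr, glutathione reductase, and Txnrd2, mitochondrial thioredoxin reductase, in any comparison. Gsr held 1, 0 and 4 counts in WT and 16, 4 and 4 in PERK-cKO cells after allogeneic stimulation and 0 to 3 after polyclonal stimulation. Txnrd2 held 0 to 6 counts in every library. Where a count is 0, up to 3 counts in that library were within the limit.

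**Figure D3:**
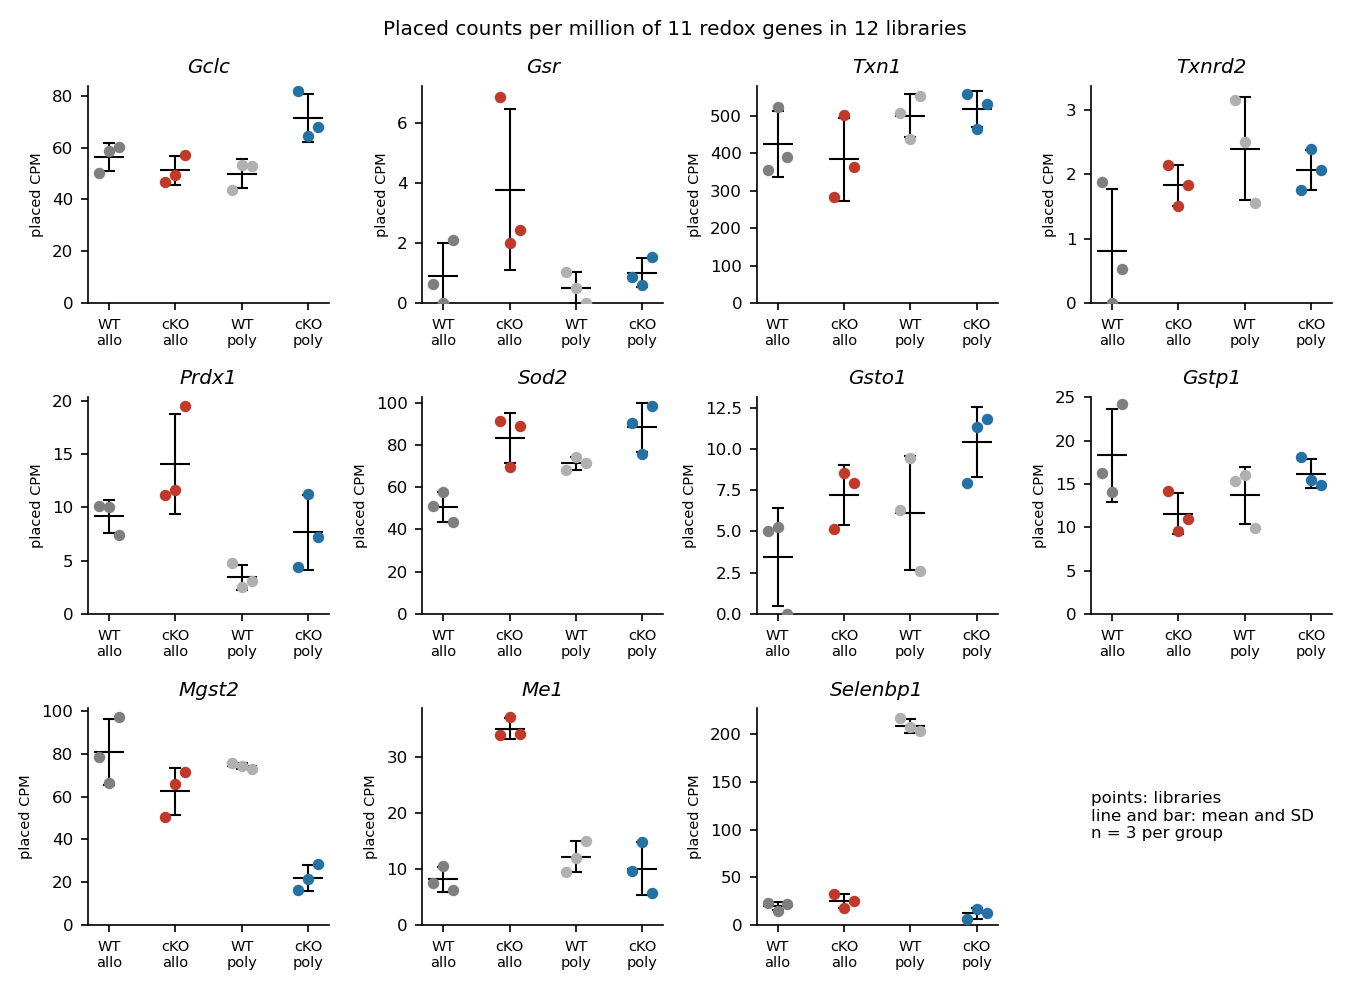
Placed CPM (y axis, linear, from 0) of the 11 kept genes in WT and PERK-cKO (cKO) T cells after allogeneic (allo) and polyclonal (poly) stimulation, with points for libraries, a line for the mean and a bar for the SD (n = 3), cut off at 0. Selenbp1 is high in WT T cells after polyclonal stimulation (209.0), Mgst2 is low in PERK-cKO cells after polyclonal stimulation (22.0), and Me1 is high in PERK-cKO cells after allogeneic stimulation (35.1).

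The genotype effect differed between the stimulations in 4 of 9 kept genes that passed the filter over all 12 libraries: Me1, Mgst2 and Selenbp1 with a positive and Gclc with a negative interaction (allogeneic minus polyclonal genotype effect). Across 4406 genes, 33.8% had a called interaction, 16.7% positive and 17.2% negative. In none of the 4 genes was the genotype difference called in both stimulations. For Txn1 the interaction was -0.19 (SE 0.219, adjusted p = 0.536), for Prdx1 -0.50 (SE 0.596, adjusted p = 0.564), for Gstp1 -0.89 (SE 0.413, adjusted p = 0.102) and for Gsto1 0.35 (SE 0.8, adjusted p = 0.774), values that neither pass the test nor show that the genotype effects were alike.

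The same libraries also compare allogeneic with polyclonal stimulation within a genotype. Here the agent differs, and the days of culture may differ with it (4 against 3 in the deposited description). In WT T cells the presence of Y-linked counts differs as well. Macrophage markers summed to 102 to 121 after allogeneic and 7.49 to 11.6 placed CPM after polyclonal stimulation in WT T cells. In PERK-cKO T cells they summed to 2150 to 2680 and 9.76 to 10.7. Basophil and mast cell markers there summed to 903 to 923 and 26.4 to 28.8. The part of those cells was not tested. In WT T cells 3 of 8 genes were called, against 48.6% of 3988 genes, 24.5% of them higher and 24.1% lower after allogeneic stimulation. Selenbp1 fell by 3.42 on the log2 scale (SE 0.144, adjusted p = 8.39e-10) and Sod2 fell by 0.53 (SE 0.142, adjusted p = 0.00798). Prdx1 rose from 3.45 ± 1.16 to 9.15 ± 1.52 placed CPM (SD, n = 3 each, log2 fold change 1.36, SE 0.404, adjusted p = 0.0138), a call that was lost without WT polyclonal replicate 2 (1.16, adjusted p = 0.0652) and with scaling to T cell markers (0.86, adjusted p = 0.0803). With 9, 5 and 6 counts in WT polyclonal libraries, Prdx1 did not pass the filter there. It entered this test through its WT allogeneic counts of 16, 17 and 14. In PERK-cKO T cells 5 of 9 were called, against 51.4% of 4162 genes, 27.7% higher and 23.8% lower. Me1 rose by 1.82 (SE 0.283, adjusted p = 3.22e-05), Mgst2 by 1.50 (SE 0.214, adjusted p = 1.24e-05) and Selenbp1 by 1.11 (SE 0.333, adjusted p = 0.00983), while Gclc fell by 0.50 (SE 0.153, adjusted p = 0.0113) and Txn1 fell by 0.44 (SE 0.146, adjusted p = 0.0182). Of these, Selenbp1 (0.86, adjusted p = 0.0666) and Gclc (-0.43, adjusted p = 0.0515) lost the call without PERK-cKO allogeneic replicate 1, as did Txn1 (-0.25, adjusted p = 0.11), and Txn1 also lost it without PERK-cKO allogeneic replicate 3 (-0.40, adjusted p = 0.0547). Without PERK-cKO polyclonal replicate 1, Selenbp1 was at 0.75 (adjusted p = 0.0524) and Gclc at -0.39 (adjusted p = 0.0604). These comparisons use the libraries of the genotype comparisons again and are not independent of them.

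For 13 further members, an entry lay over their exons together with exons of 1 or more other genes, so the counts cannot be told apart. These were described from a test of all entries as listed, chosen after their values were seen, in which 28.9% of 9467 entries were called after allogeneic and 29.5% of 9328 after polyclonal stimulation. For the interaction it was 29.0% of 10454, and between the stimulations 46.6% of 9320 in WT and 46.2% of 9695 in PERK-cKO T cells, beside 5 of 12, 4 of 11 and 5 of 12 of the entries described here. The entry of Gclm held 0 to 19 counts and passed in no comparison. Of the 12 entries tested after allogeneic stimulation 9 were called, 8 of them higher, and of the 11 tested after polyclonal stimulation 5 were called, 3 higher and 2 lower. The bases given below for a gene are exon bases. Except in the entry with Keap1 (636 bases), most of an entry's length lay over no exon, and reads from there are counted with it. The entry with Nfe2l2 spans 9421 bases, that with Nqo1 4574, with Gss 3463, with Ftl1 3445 and with Blvrb 8390.

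The entry over Nfe2l2 (153 bases) and Hnrnpa3 (233 bases) held 72, 72 and 52 counts in WT and 119, 119 and 85 in PERK-cKO cells after allogeneic stimulation (log2 fold change 0.53, SE 0.191, adjusted p = 0.0372) and did not differ after polyclonal stimulation beyond the spread (0.04, SE 0.169, adjusted p = 0.878). The entry over Keap1 (257 bases) and Gm16754 (230 bases) was lower in PERK-cKO T cells in both stimulations, with 275, 237 and 269 against 249, 198 and 192 counts after allogeneic stimulation (-0.47, SE 0.124, adjusted p = 0.00501) and 334, 331 and 369 against 274, 215 and 235 after polyclonal stimulation (-0.55, SE 0.0984, adjusted p = 0.000559). The entry over Nqo1 (307 bases), a quinone reductase and textbook NRF2 target, and Nfat5 (224 bases) moved in opposite directions. It held 126, 132 and 121 counts in WT and 229, 205 and 159 in PERK-cKO cells after allogeneic stimulation (0.46, SE 0.137, adjusted p = 0.0122), and 228, 244 and 248 against 196, 152 and 141 after polyclonal stimulation (-0.59, SE 0.115, adjusted p = 0.001), with an interaction of 1.07 (SE 0.172, adjusted p = 3.32e-05).

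The largest difference among these entries after allogeneic stimulation was that of Gss, glutathione synthetase (106 bases), which shares its entry with Acss2 (582 bases). It held 4, 4 and 10 counts in WT and 15, 32 and 20 in PERK-cKO cells (1.73, SE 0.488, adjusted p = 0.00812), and 9, 18 and 8 against 8, 8 and 9 after polyclonal stimulation, where it did not pass the filter. Its WT counts alone did not pass either. The entry was tested after allogeneic stimulation through the PERK-cKO counts, where it is high, so its rank rests on low counts. Entries at 2 genes of iron and haem handling came next, singled out after their values were seen. The entry over Ftl1 (119 bases), ferritin light chain, together with Bax, Gm10252 and Gys1 (1016 bases), held 3702, 5145 and 4609 counts in WT and 13872, 17611 and 12571 in PERK-cKO cells after allogeneic stimulation (1.55, SE 0.12, adjusted p = 1.21e-10), and 3935, 3942 and 3471 against 5811, 3958 and 5452 after polyclonal stimulation (0.39, SE 0.0846, adjusted p = 0.0026). The entry over Blvrb (1720 bases), biliverdin reductase B, and Sptbn4 (94 bases) held 42, 32 and 47 counts in WT and 182, 162 and 106 in PERK-cKO cells after allogeneic stimulation (1.70, SE 0.186, adjusted p = 6.37e-08), against 30, 31 and 35 and 26, 18 and 13 after polyclonal stimulation (-0.79, SE 0.299, adjusted p = 0.0592). The entry with Gpx1 (glutathione peroxidase, with Rhoa) was higher in PERK-cKO T cells in both stimulations (0.75, SE 0.0854, adjusted p = 1.28e-07 and 0.49, SE 0.0805, adjusted p = 0.000241), as was that with Taldo1 (transaldolase of the pentose phosphate pathway, with 3 other genes; 0.44, adjusted p = 0.00323 and 0.38, adjusted p = 0.00765). The entry with G6pdx and 6 other genes was called only after allogeneic stimulation (0.27, SE 0.0872, adjusted p = 0.0192), while those with Prdx5, Gstm1 and Pgd were called in neither. The higher values of all 8 entries after allogeneic stimulation (Nfe2l2, Nqo1, Gss, Gpx1, G6pdx, Taldo1, Ftl1 and Blvrb) fall in the PERK-cKO libraries with the high macrophage markers given above, and the part of those cells was not tested.

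**Figure D4:**
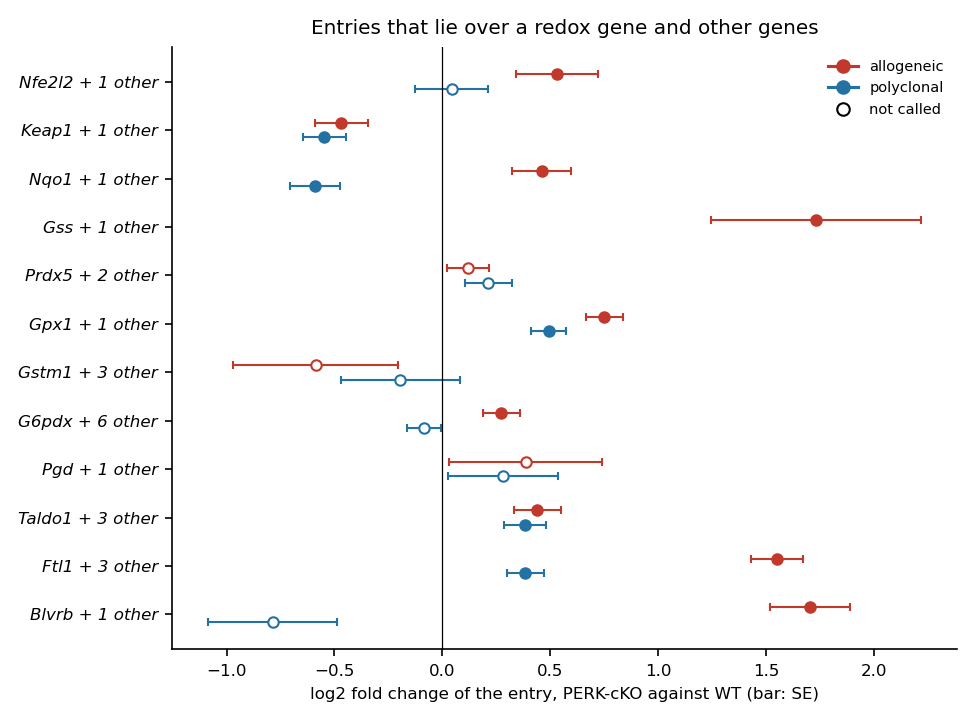
Log2 fold change of PERK-cKO against WT (x axis, bar: SE) for 12 entries that lie over a redox gene and over the number of other genes given after its name, in red after allogeneic and in blue after polyclonal stimulation, with 3 libraries per genotype and open points for entries that were not called. The entries with Blvrb (1.70), Gss (1.73) and Ftl1 (1.55) lie farthest to the right after allogeneic stimulation.

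The surrounding pathway was read from a wider list of 91 genes of redox and detoxification, of which 32 had 10 or more placed counts. After allogeneic stimulation 28 passed the filter and 13 were called, 12 of them higher and 1 lower in the PERK-cKO cells, beside 33.2% of all genes called. The median log2 fold change was 0.28, against -0.02 over all genes. After polyclonal stimulation 26 passed and 10 were called, with 5 on each side, beside 31.8% of all genes, and a median log2 fold change of 0.07, against 0.0014 over all genes. The interaction was called in 10 of 29, with 7 positive and 3 negative, beside 33.8% of all genes. The higher values after allogeneic stimulation that follow fall in the PERK-cKO libraries with the high macrophage and basophil and mast cell markers given above, and the part of those cells was not tested.

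Slc7a11, the cystine transporter that feeds glutathione synthesis, held 22, 26 and 21 counts in WT and 247, 214 and 192 in PERK-cKO T cells (log2 fold change 3.04, SE 0.183, adjusted p = 2.99e-12), and 38, 32 and 38 against 47, 32 and 42 after polyclonal stimulation, with an interaction of 2.90 (SE 0.269, adjusted p = 2.5e-08). Slc3a2, its heavy chain, rose in both stimulations (0.86, SE 0.0915, adjusted p = 6.98e-08 and 0.30, SE 0.0766, adjusted p = 0.00761), although after polyclonal stimulation its value was -0.03 with libraries scaled to T cell markers. Cth, which makes cysteine by transsulfuration and did not pass the filter after allogeneic stimulation, fell by 1.04 (SE 0.201, adjusted p = 0.00104) after polyclonal stimulation, from 91, 87 and 111 counts in WT to 67, 31 and 47 in PERK-cKO T cells.

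Idh1, cytosolic isocitrate dehydrogenase, held 9, 27 and 12 counts in WT and 71, 104 and 78 in PERK-cKO cells after allogeneic stimulation (2.21, SE 0.318, adjusted p = 6.06e-06; 2.82 without WT replicate 2), and H6pd, which makes NADPH in the ER, was at 0.34 (adjusted p = 0.0261). Gstt1, a theta-class transferase, rose by 2.04 (SE 0.189, adjusted p = 7.32e-09) and Ptgr1, a reductase of lipid aldehydes read over its own entry, rose in both stimulations (1.37, SE 0.187, adjusted p = 2.81e-06 and 1.24, SE 0.267, adjusted p = 0.00225). Aldh2, mitochondrial aldehyde dehydrogenase, moved in opposite directions: it held 187, 188 and 201 counts in WT and 690, 533 and 460 in PERK-cKO cells after allogeneic stimulation (1.34, SE 0.107, adjusted p = 5.25e-10), and 321, 326 and 262 against 196, 126 and 181 after polyclonal stimulation (-0.89, SE 0.119, adjusted p = 4.62e-05), with an interaction of 2.21 (SE 0.157, adjusted p = 4.88e-10). Ephx1, microsomal epoxide hydrolase, fell by 1.30 (SE 0.121, adjusted p = 1.62e-06) after polyclonal stimulation.

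Of the remaining calls after allogeneic stimulation, Cybb, the catalytic subunit of the phagocyte NADPH oxidase, held 18, 8 and 10 counts in WT and 257, 217 and 138 in PERK-cKO T cells (3.86, SE 0.244, adjusted p = 7.21e-12) and was at 0 to 7 counts after polyclonal stimulation. Its WT counts alone did not pass the filter, so it entered this test through the PERK-cKO counts, where it is high. Cybb is abundant in myeloid cells, whose markers moved with it as given above. The exporter gene Abcc5 rose by 0.83 (SE 0.125, adjusted p = 1.27e-05), which was 0.45 (adjusted p = 0.25) from entries at least 50% inside its exons, and Cul3, the ubiquitin ligase scaffold that works with KEAP1, fell by 0.87 (SE 0.233, adjusted p = 0.00534). Cbr3 (0.81, adjusted p = 0.0125), Glrx (0.42, adjusted p = 0.0248), H6pd and Nfe2l1 (0.31, adjusted p = 0.0134) lost the call without any 1 of several libraries. For Nfe2l1 it was WT replicate 1 (0.22, adjusted p = 0.112) or PERK-cKO replicate 3 (0.27, adjusted p = 0.071), and for Cbr3 WT replicate 2 (0.69), PERK-cKO replicate 1 (0.71) or PERK-cKO replicate 3 (0.73). For Glrx it was WT replicates 1 (0.25) and 2 (0.47) or PERK-cKO replicates 2 (0.33) and 3 (0.36), and for H6pd WT replicates 2 (0.26) and 3 (0.33) or PERK-cKO replicates 1 (0.30) and 3 (0.31). After polyclonal stimulation Tigar (0.59, adjusted p = 0.00031), Selenot (0.56, adjusted p = 0.00533) and Gstt3 (0.50, adjusted p = 0.0118) were also higher, and Selenow (-0.82, adjusted p = 0.00337) and Rac2 (-0.53, adjusted p = 0.0035) lower. The Gstt3 call was lost without PERK-cKO replicate 1 (0.42, adjusted p = 0.0554), from entries at least 50% inside its exons (0.60, adjusted p = 0.107) and, like that of Selenot (0.23, adjusted p = 0.199), with scaling to T cell markers (0.18, adjusted p = 0.317). The entries behind these values were, as for the members, mostly listed under other symbols. Of the wider genes named above, only Glrx and Ptgr1 had entries wholly inside their exons. For the others most of the entries' length lay outside the exons, and reads from there are counted with them. The part inside was 3.11% for Idh1, 6.27% for Cul3, 11.64% for Gstt1, 13.99% for Slc7a11 and at most 46.84%, for H6pd. How the counts divide between exons and the rest was not tested.

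**Figure D5:**
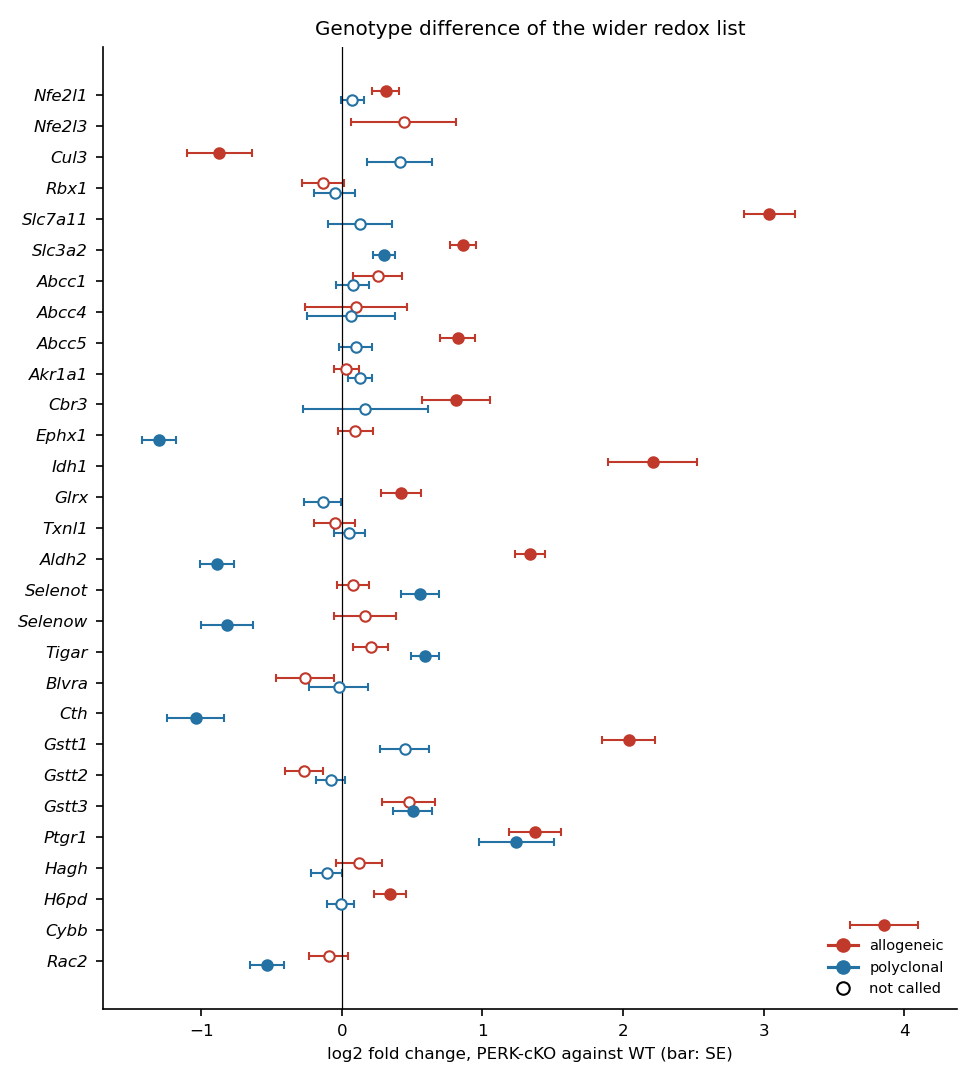
Log2 fold change of PERK-cKO against WT (x axis, bar: SE) for the wider redox genes that passed the filter, in red after allogeneic and in blue after polyclonal stimulation, with 3 libraries per genotype and open points for genes that were not called. Cybb (3.86) and Slc7a11 (3.04) lie farthest to the right, and Aldh2 lies on opposite sides of 0 in the 2 stimulations.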

How the data were processed

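The 12 RNA-Seq libraries fell into 4 groups of 3 by their labels. The values are raw counts, which the authors deposited as written by featureCounts 2.0.1, run on read pairs with no strand option over the exons of each symbol of GENCODE M27 (GRCm39), whereas the labels name mm10 as the genome build. The aligner is not given in the sources used here. Of 53762 entries, 13393 were placed on exons of exactly 1 gene of GENCODE M21 (GRCm38), by 50 bases or more and without small RNAs, with positions read as printed, and held 50.5% of counts. An entry can hold reads from outside those exons. In addition, near-identical genes and antisense genes were not separated.

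Counts were filtered by filterByExpr, normalized by TMM and tested with edgeR 4.0.16 (glmQLFit and glmQLFTest, R 4.3.3), with 6 libraries for each comparison and 12 for the interaction. A gene was called when its p, adjusted by Benjamini-Hochberg over all genes tested, was under 0.05. Placed CPM used TMM over 12 libraries. DESeq2 1.42.0 and the other alternatives are named in the closing section. The fits were tested on simulated data. The members and lists were chosen with earlier results of these data known. By rule, values by library were given for members called in a genotype or interaction test and for Nfe2l2, Keap1 and Nqo1, and genes of the wider list were named where called in a genotype test within a stimulation. Values by library of other members, of wider genes and of other shared entries were added after they were seen. Replicates differed by more than sampling noise (chi-square per degree of freedom 3.59 to 54.5).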

Additional observations from a re-analysis of the deposited data

Results flagged for a closer look

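The difference between genotypes was not the same in the 2 stimulations, by the test of the interaction itself (edgeR's quasi-likelihood test, 12 libraries, adjusted over all genes), in 4 of the kept genes. Selenbp1 had an interaction of 4.52 on the log2 scale (adjusted p = 1.55e-09), from a genotype difference of 0.36 after allogeneic and -4.18 after polyclonal stimulation. Me1 had 2.40 (adjusted p = 0.000235), from 2.11 and -0.31. Mgst2 had 1.38 (adjusted p = 0.000263), from -0.38 and -1.78. Gclc had -0.67 (adjusted p = 0.0174), from -0.15 and 0.50. Called interactions made up 33.8% of all 4406 genes tested. The groups hold 3 libraries each, and no test of a single outlying library was run.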

How the results depend on the processing

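Calls for the kept genes were unchanged in direction and in side of the threshold with DESeq2, RLE factors, total placed counts only, a replicate block and all 12 libraries in one fit, in 42 of 42 tests each (33 of 33 for all 12 libraries, which was not run for the interaction). The replicate numbers shared only a name (correlations of same-numbered libraries of -0.0988 to 0.0983), and with the replicate block the members called stayed 2, 3, 4, 3 and 5 in the allogeneic, polyclonal, interaction, WT and PERK-cKO comparisons. Of the wider list, the Tigar interaction lost its call under the block (-0.40, adjusted p = 0.0572), and those of Tigar and Selenot with DESeq2 (-0.35 and -0.44), RLE factors (-0.35 and -0.44), total placed counts only (-0.41 and -0.50), at least 10 counts in every library (-0.28 and -0.37) and without any 1 of 10 and of 9 of the 12 libraries, and that of Tigar also with no filter (-0.39). The filters moved 3 member calls: Gclc lost the interaction with at least 10 counts in every library (-0.55), and without a filter Txn1 in WT (-0.26, adjusted p = 0.0312) and Prdx1 in PERK-cKO (0.87, adjusted p = 0.0485; 0.94 with at least 10 counts) passed between the stimulations. Between the stimulations Txn1 also passed in WT without WT allogeneic (-0.44) or polyclonal replicate 2 (-0.37), and Prdx1 in PERK-cKO without allogeneic replicate 1 (1.05) or polyclonal replicate 2 (1.26). Without 1 library the counts were 2 to 3 (allogeneic), 2 to 4 (polyclonal), 3 to 5 (interaction), 3 to 4 (WT) and 3 to 6 (PERK-cKO).

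The counts moved by over 1.5 times in few settings. With a log2 fold change beyond 1 they were 1 (allogeneic) and 3 (PERK-cKO). From entries at least 50% inside exons, which left 3 or 4 testable members, they were 0 (polyclonal), 1 (interaction) and 2 (PERK-cKO). In the polyclonal comparison 0 of the 3 passed by edgeR at an unadjusted p under 0.05 as well, while edgeR and DESeq2 each called 3 members without that rule. Those called members, Selenbp1, Mgst2 and Gclc, had 15.1%, 1.33% and 15.51% of their entries inside exons. The rule left them out, so it did not retest them. Scaling to T cell markers gave 5 in WT. The entries as listed, of which only that of Txn1 was placed on its own gene among the kept members, gave 4 (allogeneic), 7 (interaction), 9 (WT) and 9 (PERK-cKO).

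Signs turned with scaling to T cell markers for Gclc (0.0008 allogeneic, -0.35 in WT), Txn1 (0.0143 allogeneic, -0.29 polyclonal, 0.31 interaction), Sod2 (-0.0269 polyclonal), Gstp1 (-0.10 polyclonal, -0.10 in WT), Mgst2 (-0.40 in WT), Slc3a2 (-0.0278 polyclonal), Selenot (0.0053 interaction) and Tigar (0.0912 interaction). Under this scaling the median over all genes was 0.13 (allogeneic), -0.32 (polyclonal), 0.50 (interaction) and -0.51 (WT), and the calls from 759 higher and 601 lower to 951 and 314 (allogeneic), from 631 and 623 to 167 and 1490 (polyclonal), from 734 and 757 to 1609 and 188 (interaction) and from 976 and 963 to 351 and 2186 (WT). Entries as listed under the following symbols were not placed on those genes' exons. Their values therefore do not test the calls given above. Prdx1 was at -0.34 (allogeneic), 0.0335 (interaction), -0.078 (WT) and -0.0563 (PERK-cKO). Me1 was at -0.34 (PERK-cKO), 0.34 (allogeneic, adjusted p = 0.328) and 0.69 (interaction, adjusted p = 0.0882). Nfe2l1 was at -0.77, Cul3 at 0.0631 and Abcc5 at -0.35 (allogeneic) and -0.10 (interaction). Those of Idh1 (0.41), H6pd (0.44) and Cybb (0.66, allogeneic) and of Cul3 (-0.21, interaction) were not called. From entries at least 50% inside exons the interaction calls of Abcc5 (0.16) and Tigar (-0.33) were lost, and with scaling to T cell markers that of Cul3 (-0.81). Without 1 library, values within the spread of 0 turned for Txn1 (-0.37 to 0.0383 allogeneic, -0.0535 to 0.11 polyclonal, -0.40 to 0.0219 interaction), Sod2 (-0.19 to 0.0291 in PERK-cKO), Gsto1 (-0.28 to 0.84, interaction) and Mgst2 (-0.0667 to 0.23 in WT). The cause was not tested. Gsr, Txnrd2, Gsto1 and Prdx1 held at most 32 counts in any library, from 100 to 537 bases of exon, which limits what their tests can show.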
